A study of Saccharomyces cerevisiae with 22 samples.

Results

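The 36 genes described here are nuclear genes of oxidative phosphorylation in the budding yeast Saccharomyces cerevisiae. They were taken by systematic name from the 7126 rows of the deposited tables. They encode 12 subunits of the ATP synthase, 8 subunits of cytochrome c oxidase, 9 subunits of the cytochrome bc1 complex, cytochrome c (CYC1), 4 subunits of succinate dehydrogenase and the NADH dehydrogenases NDE1 and NDI1. All 36 passed the filter on low counts, and the lowest count of any member in any library was 255.

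The series concerns how cells respond when import of proteins into mitochondria is under stress. PolyA RNA was sequenced from the haploid strain W303, grown in rich medium with 2% raffinose and then given 2% galactose for 4 h, in every group. Cells carried a multicopy 2-micron plasmid that was empty (5 libraries), that expressed PSD1 (6 libraries) or that expressed V5-PSD1, PSD1 with the V5 epitope tag (5 libraries). The last group expressed PSD1 from the same kind of plasmid in cells with a deletion of PDR3 (6 libraries). PSD1 encodes the phosphatidylserine decarboxylase of mitochondria, PDR3 encodes a transcription factor of drug resistance genes, and the GAL1-10 promoter that drives both PSD1 plasmids is switched on by galactose. The labels do not say whether the libraries of a group came from separate cultures, so a p-value measures only the spread between these libraries, which may be technical.

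Libraries held 8152941 to 20839061 counts. In CPM, counts scaled to the same TMM library size in every library, PSD1 mRNA stood between 240.2 and 602.7 CPM with the empty vector, between 8094 and 24970 CPM with PSD1, between 13510 and 27210 CPM with PSD1 in the PDR3 deletion and between 19030 and 30490 CPM with V5-PSD1. PDR3 had 1 to 3 counts in each deletion library and 776 or more in every other one. STE2, the receptor of a cells, was at 520.6 ± 31.5 CPM with the empty vector (SD, n = 5), against 5.386 ± 1.10 CPM for STE3, the receptor of alpha cells. The library numbers in the labels begin with 5 in 12 libraries and with 6 in 10, and each group had libraries of both series.

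Oxidative phosphorylation passes electrons from NADH and succinate through ubiquinone, the bc1 complex, cytochrome c and cytochrome c oxidase to oxygen, and the ATP synthase uses the proton gradient built on the way. Budding yeast has no proton-pumping complex I, and single-chain NADH dehydrogenases on the outer (Nde1) and inner (Ndi1) face of the inner membrane feed ubiquinone in its place. Most subunits are encoded in the nucleus and imported, while a few catalytic ones are made inside the organelle. Many nuclear genes of the chain are known to be activated on non-fermentable carbon by the Hap2/3/4/5 complex, which binds the sequence CCAAT, and some by the haem-responsive factor Hap1.

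With PSD1, 30 of the 36 genes fell against the empty vector and none rose, by a median of 0.48 on the log2 scale, a level 28.3% lower. Of all 6278 genes tested, 56.6% passed in that comparison (29.7% higher, 26.9% lower), and their median was 0.019. Calls and adjusted p-values of single genes come from the quasi-likelihood test of edgeR at a threshold of 0.05, adjusted by Benjamini-Hochberg over all genes tested. In the PDR3 deletion 31 of the 36 fell and none rose, where 47.5% of all genes passed (26.1% higher, 21.4% lower). With V5-PSD1, 0 of 36 passed, where 3.03% of all genes did (2.53% higher, 0.494% lower). These 3 comparisons share the empty-vector libraries. Each change is relative to the other mRNAs of a culture, and in bulk RNA fewer cells with a transcript and less transcript per cell cannot be told apart.

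All 36 members had a negative log2 fold change with PSD1. The ATP synthase had 10 of 12 genes lower with a median of −0.53. Cytochrome c oxidase had 8 of 8 lower (median −0.46), the bc1 complex 7 of 9 (−0.47), succinate dehydrogenase 2 of 4 (−0.38) and the NADH dehydrogenases 2 of 2 (−0.46), and CYC1 fell by 0.32. The 6 members that did not pass were ATP15, ATP18, QCR8, QCR9, SDH3 and SDH4. In 21 of the 36 genes (58.3%) every PSD1 library lay below every empty-vector library, as it did for 15.7% of all genes tested, and in none did it lie above (18.4% of all genes). In FPKM, a level per length, the 36 genes together held 3.85% ± 0.193 of the summed FPKM with the empty vector (SD, n = 5), 2.70% ± 0.111 with PSD1 (n = 6), 2.70% ± 0.142 with PSD1 in the deletion (n = 6) and 3.58% ± 0.323 with V5-PSD1 (n = 5).

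**Figure D1:**
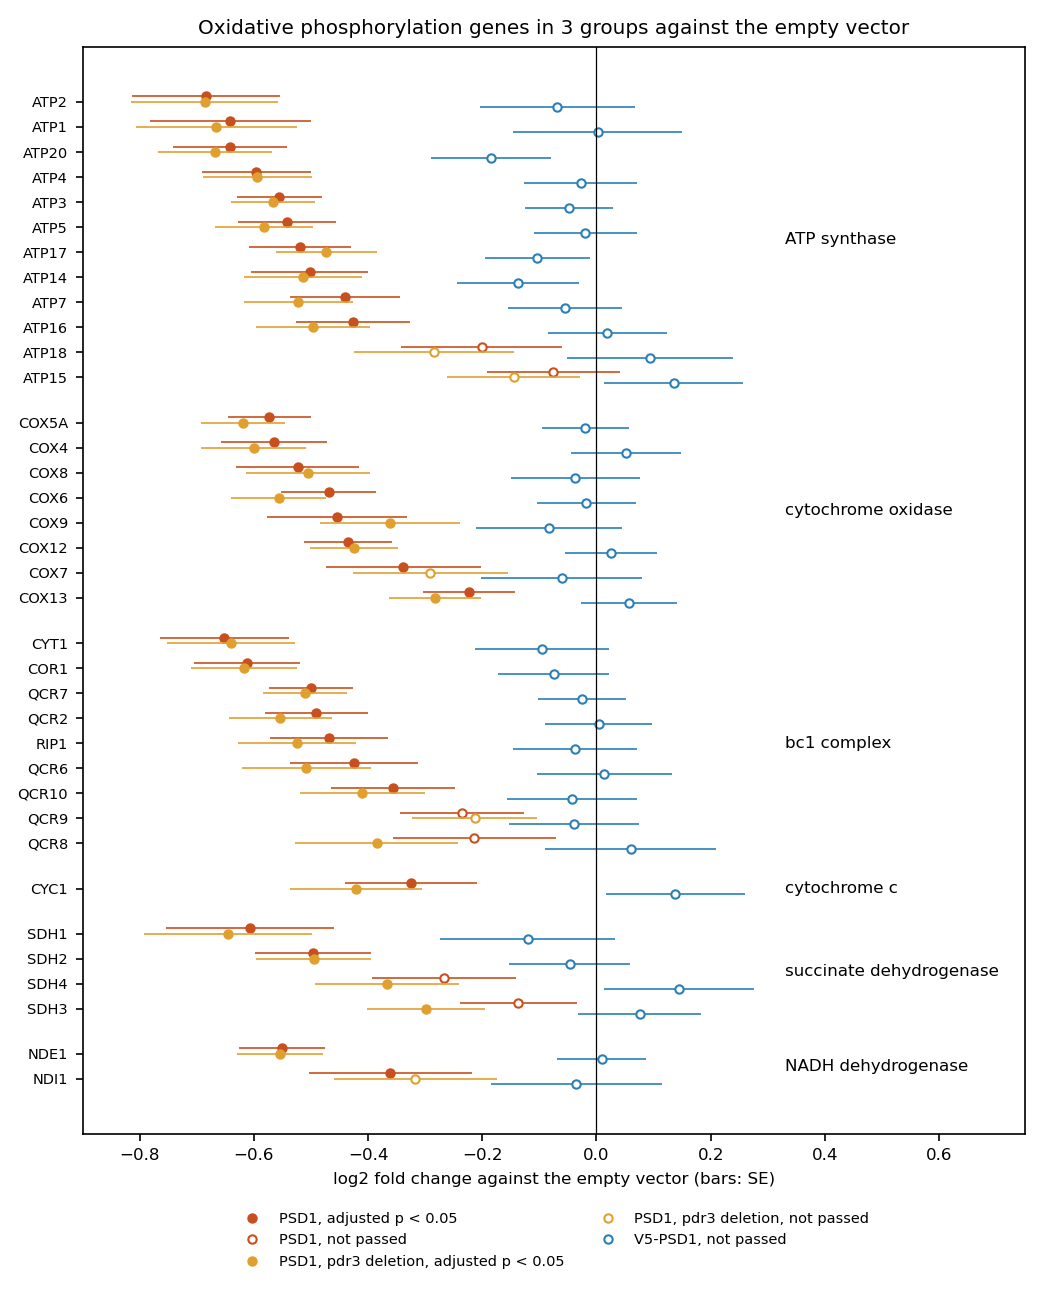
Log2 fold change against the empty vector, with its standard error, for each of the 36 genes in the 3 groups that express PSD1 or V5-PSD1. Filled points passed the threshold on the adjusted p-value. With PSD1 and with PSD1 in the PDR3 deletion all points lie left of 0, down to −0.69, and with V5-PSD1 all points are open and lie between −0.18 and 0.14.

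The window of 300 bases that ends 100 bases before the start codon was read for each member from the R64 reference, which has the sequence of sacCer3 and comes from strain S288C, so W303 may differ at single bases. It is where the sites of the Hap complex and of Hap1 are usually found in these genes. CCAAT, on either strand, stood in 33 of 36 windows (91.7%), against 43.9% of the windows of 6001 nuclear protein-coding genes. The longer form ACCAATNA stood in 15 (41.7%) against 5.33%, and each of its matches also holds a CCAAT. CGGNNNTANCGG, a form of the Hap1 site, was found in the QCR6 window alone (0.217% of all windows), and CCGCGG in those of ATP7, QCR6 and SDH3 (8.33% against 2.37%). A match is a description of the letters and not a site of binding. CCAAT stood in 12 of 12 windows of the ATP synthase, 4 of 4 of succinate dehydrogenase and 2 of 2 of the NADH dehydrogenases. The windows without it were those of COX4, CYT1 and CYC1.

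The windows of the gene with the largest fall (ATP2, chr10:647207-647506, + strand), of the paralogues COX5A (chr14:531325-531624, + strand) and COX5B (chr9:154822-155121, + strand), which moved in opposite directions, and of CYT1 (chr15:447039-447338, + strand) follow from 5′ to 3′. CYT1 fell and has no CCAAT in this window, and bases outside it were not searched. Capitals mark CCAAT or its reverse complement ATTGG. The run of 8 capitals in ATP2 is 2 overlapping matches, 1 on each strand.
ATP2: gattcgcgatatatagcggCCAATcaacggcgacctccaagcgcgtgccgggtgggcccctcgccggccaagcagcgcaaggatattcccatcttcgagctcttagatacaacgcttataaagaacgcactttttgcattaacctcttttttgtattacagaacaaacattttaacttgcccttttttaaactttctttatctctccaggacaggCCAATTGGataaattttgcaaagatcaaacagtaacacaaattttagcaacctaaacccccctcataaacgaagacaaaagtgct
COX5A: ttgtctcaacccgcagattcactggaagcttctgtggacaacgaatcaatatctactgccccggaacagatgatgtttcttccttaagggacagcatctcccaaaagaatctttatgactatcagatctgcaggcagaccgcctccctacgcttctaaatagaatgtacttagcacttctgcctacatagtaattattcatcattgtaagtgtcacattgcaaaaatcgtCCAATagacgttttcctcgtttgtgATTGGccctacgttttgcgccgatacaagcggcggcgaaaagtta
COX5B: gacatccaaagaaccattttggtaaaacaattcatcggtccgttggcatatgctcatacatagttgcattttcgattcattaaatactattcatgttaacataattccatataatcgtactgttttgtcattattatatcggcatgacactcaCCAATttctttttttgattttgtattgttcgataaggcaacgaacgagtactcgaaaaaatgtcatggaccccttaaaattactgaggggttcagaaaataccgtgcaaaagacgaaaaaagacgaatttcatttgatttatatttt
CYT1: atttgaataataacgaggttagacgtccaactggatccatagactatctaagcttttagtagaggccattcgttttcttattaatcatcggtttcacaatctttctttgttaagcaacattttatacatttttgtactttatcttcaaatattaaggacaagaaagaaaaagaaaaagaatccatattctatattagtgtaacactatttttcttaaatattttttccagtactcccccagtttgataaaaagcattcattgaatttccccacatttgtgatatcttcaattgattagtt

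In the ATP synthase, ATP2 encodes the catalytic beta subunit of the F1 head (YJR121W, chromosome X, 647607 to 649142, + strand). The empty-vector libraries had 4193, 3672, 3151, 3256 and 3427 CPM. Under PSD1 expression the level ranged from 1767 to 2683 CPM around a median of 2123, and with PSD1 in the PDR3 deletion from 1878 to 3079 around 2041. Every library of these 2 groups lay below every empty-vector library. The log2 fold change with PSD1 was −0.68 ± 0.13 (SE, adjusted p = 0.000169), the most negative of the 36, and in the deletion it was −0.69 ± 0.13 (adjusted p = 0.000221). With V5-PSD1 the values were 4266, 3183, 2828, 3287 and 3301 CPM, which overlap the empty vector (−0.07 ± 0.14, adjusted p = 0.822).

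ATP20 encodes subunit g, which sits where ATP synthase dimers meet. Its level was 180.6, 174.4, 165.6, 166.6 and 190.1 CPM with the empty vector. It lay between 92.1 and 143.4 CPM with PSD1 (median 109.8) and between 100 and 121.8 CPM in the deletion (median 110.0), both below all controls. It fell by 0.64 ± 0.10 with PSD1 (adjusted p = 2.42e-05) and by 0.67 ± 0.10 in the deletion (adjusted p = 2.27e-05). V5-PSD1 libraries had 183.4, 168.0, 123.2, 143.4 and 155.5 CPM, and 3 of these 5 values were under the lowest control (−0.18 ± 0.10, adjusted p = 0.38).

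ATP15, the epsilon subunit of the central stalk, was the ATP synthase gene with the smallest difference. It was at 204.4, 189.8, 173.4, 168.5 and 224.5 CPM with the empty vector and at 155.5 to 233.0 CPM (median 175.6) with PSD1. The groups overlapped, and the log2 difference was −0.08 ± 0.12 (adjusted p = 0.596). Deletion libraries had 162.6 to 195.9 CPM (median 168.7), and the V5-PSD1 libraries had 279.1, 223.2, 159.2, 198.3 and 198.5 CPM. The difference of ATP15 with PSD1 turned to 0.018 without empty vector replicate 5.

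The other subunits of the F1 head, ATP1 (alpha), ATP3 (gamma) and ATP16 (delta), fell by 0.64, 0.56 and 0.43 with PSD1. Those of the peripheral stalk, ATP4, ATP5, ATP7 and ATP14, fell by 0.60, 0.54, 0.44 and 0.50. In the membrane part, ATP17 (subunit f) fell by 0.52, and ATP18 (subunit i/j), which ranged from 36.9 to 75.3 CPM over all groups, had −0.20 ± 0.14 (adjusted p = 0.23).

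In cytochrome c oxidase, COX5A encodes the subunit V isoform used in air (YNL052W, chromosome XIV, 531725 to 532186, + strand), and its window is printed above. Its levels were 595.0, 550.5, 519.2, 586.0 and 632.5 CPM with the empty vector. With PSD1 they ran from 364.2 to 438.4 CPM (median 380.7) and in the deletion from 357.0 to 397.1 CPM (median 374.1). No library of either group reached the lowest control. COX5A fell by 0.57 ± 0.07 with PSD1 (adjusted p = 2.19e-06) and by 0.62 ± 0.07 in the deletion (adjusted p = 1.69e-06). With V5-PSD1 it was at 651.9, 596.5, 477.3, 580.5 and 537.6 CPM, which overlaps the controls (−0.02 ± 0.08).

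COX4, a subunit needed to assemble the enzyme, was at 250.4, 252.5, 231.1, 261.9 and 267.0 CPM with the empty vector. PSD1 libraries held 154.5 to 184.5 CPM (median 173.9) and deletion libraries 144.3 to 197.3 CPM (median 165.4), all below the controls. The log2 fold change was −0.56 ± 0.09 (adjusted p = 3.7e-05) and −0.60 ± 0.09 (adjusted p = 2.82e-05). V5-PSD1 libraries had 324.6, 276.7, 208.5, 246.3 and 254.0 CPM, on both sides of the control range.

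COX13, subunit VIa, showed the smallest fall in this complex. It had 449.0, 411.1, 377.6, 418.9 and 470.8 CPM with the empty vector, 323.6 to 405.5 CPM (median 368.8) with PSD1 and 329.7 to 374.9 CPM (median 348.0) in the deletion. The deletion libraries lay below all controls and the PSD1 libraries overlapped them (−0.22 ± 0.08, adjusted p = 0.0237 with PSD1, −0.28 ± 0.08, adjusted p = 0.00679 in the deletion). With V5-PSD1 its values were 527.6, 459.2, 369.6, 426.4 and 431.6 CPM. Its call with PSD1 was lost without empty vector replicate 1 or 5 or PSD1 replicate 5 or 6 (highest adjusted p = 0.091). Among the other subunits, COX8, COX6, COX9 and COX12 fell by 0.52, 0.47, 0.45 and 0.44. COX7 fell by 0.34 and lost its call without empty vector replicate 1 or 5 or PSD1 replicate 3, 5 or 6 (highest adjusted p = 0.192).

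In the bc1 complex, CYT1 encodes cytochrome c1, the haem protein that hands electrons to cytochrome c (YOR065W, chromosome XV, 447439 to 448368, + strand). It was at 1425, 1270, 1056, 1225 and 1368 CPM with the empty vector. It ranged from 602.8 to 938.2 CPM with PSD1 (median 872.7) and from 674.6 to 924.3 CPM in the deletion (median 842.9). All 12 of these libraries lay below all 5 controls. CYT1 fell by 0.65 ± 0.11 with PSD1 (adjusted p = 6.64e-05) and by 0.64 ± 0.11 in the deletion (adjusted p = 0.000112). V5-PSD1 libraries were at 1384, 1088, 956.4, 1243 and 1275 CPM, and 1 of them lay under the lowest control (−0.10 ± 0.12).

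COR1, a core subunit, had 2275, 1914, 1794, 1814 and 1865 CPM with the empty vector. Its range was 1081 to 1490 CPM with PSD1 (median 1274) and 1128 to 1468 CPM in the deletion (median 1239), again below every control. It fell by 0.61 ± 0.09 (adjusted p = 1.73e-05) and by 0.62 ± 0.09 (adjusted p = 2.3e-05). With V5-PSD1 the values were 2064, 1782, 1554, 1841 and 1929 CPM, within or under the control range.

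QCR8, a small subunit at the ubiquinone site, differed least. It had 242.9, 217.1, 195.5, 245.3 and 276.5 CPM with the empty vector, 162.0 to 269.0 CPM with PSD1 (median 197.3) and 148.8 to 204.8 CPM in the deletion (median 183.5). Both groups overlapped the controls. It did not pass with PSD1 (−0.21 ± 0.14, adjusted p = 0.211) and fell in the deletion (−0.39 ± 0.14, adjusted p = 0.0323). V5-PSD1 libraries had 345.3, 234.3, 180.9, 251.5 and 214.5 CPM. The other core subunit QCR2 fell by 0.49 with PSD1, the Rieske iron-sulphur protein RIP1 by 0.47, and QCR7, QCR6 and QCR10 by 0.50, 0.42 and 0.36. QCR9 had −0.24 ± 0.11 (adjusted p = 0.0724).

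CYC1, iso-1-cytochrome c (YJR048W, chromosome X, 526335 to 526664, + strand), was the member with the highest level per length in the controls, 3553 ± 470 FPKM (SD, n = 5). In CPM it was at 1003, 898.3, 801.1, 1006 and 1172 with the empty vector. With PSD1 it ranged from 603.3 to 956.1 CPM (median 756.2) and in the deletion from 593.5 to 822.2 CPM (median 773.1), and both overlap the controls. It fell by 0.32 ± 0.12 with PSD1 (adjusted p = 0.022) and by 0.42 ± 0.12 in the deletion (adjusted p = 0.00539). The first call was lost without empty vector replicate 1 or 5 or PSD1 replicate 2 (highest adjusted p = 0.0748). With V5-PSD1 the values were 1246, 1093, 861.0, 1051 and 1097 CPM (0.14 ± 0.12, adjusted p = 0.577).

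Succinate dehydrogenase is the enzyme shared by the TCA cycle and the respiratory chain, and with PSD1 its 2 catalytic subunits fell while neither membrane anchor passed. SDH1, the flavoprotein, had 1380, 1140, 1028, 1128 and 1166 CPM with the empty vector, 572.8 to 1006 CPM with PSD1 (median 778.7) and 623.1 to 1010 CPM in the deletion (median 738.3). The highest library of each group stayed under the lowest control. SDH1 fell by 0.61 ± 0.15 (adjusted p = 0.0016) and by 0.65 ± 0.15 (adjusted p = 0.00124). With V5-PSD1 it was at 1293, 984.2, 880.1, 1106 and 1115 CPM (−0.12 ± 0.15).

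SDH2, the iron-sulphur subunit, had 890.6, 708.3, 671.0, 725.6 and 761.5 CPM with the empty vector. PSD1 libraries ranged from 443.4 to 627.9 CPM (median 550.2) and deletion libraries from 491.8 to 616.7 CPM (median 521.5), below all controls. It fell by 0.50 ± 0.10 in both (adjusted p = 0.000364 and 0.000486). V5-PSD1 libraries had 868.0, 696.1, 584.0, 747.8 and 742.6 CPM, which overlap the controls.

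SDH3, a membrane anchor, had 395.5, 367.4, 308.1, 301.3 and 343.6 CPM with the empty vector and 240.5 to 366.0 CPM with PSD1 (median 307.4), with −0.14 ± 0.10 (adjusted p = 0.268). In the deletion it ranged from 234.3 to 325.4 CPM (median 278.9) and fell by 0.30 ± 0.10 (adjusted p = 0.0219). With V5-PSD1 its values were 486.5, 397.0, 292.1, 316.7 and 324.0 CPM, and all 3 groups overlapped the controls. The other anchor, SDH4, had −0.27 ± 0.13 with PSD1 (adjusted p = 0.0762) and fell in the deletion (−0.37). The difference in log2 fold change between catalytic subunits and anchors was not tested.

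NDE1, which oxidises cytosolic NADH, had the tightest controls of all 36 genes, 2118, 2069, 2108, 2044 and 2192 CPM. With PSD1 it was at 1211 to 1604 CPM (median 1452) and in the deletion at 1361 to 1686 CPM (median 1378), below the control range. It fell by 0.55 ± 0.07 with PSD1 (adjusted p = 4.97e-06) and by the same amount in the deletion (adjusted p = 7.14e-06). V5-PSD1 libraries had 2162, 2007, 2081, 2142 and 2208 CPM (0.01 ± 0.08).

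NDI1, which oxidises NADH in the matrix, had 1164, 846.2, 811.4, 839.5 and 903.9 CPM with the empty vector. PSD1 libraries ranged from 542.7 to 879.0 CPM (median 742.4) and deletion libraries from 603.7 to 967.6 CPM (median 734.8), and both overlapped the controls. It fell with PSD1 (−0.36 ± 0.14, adjusted p = 0.0378) and did not pass in the deletion (−0.32 ± 0.14, adjusted p = 0.0748). The call with PSD1 was lost without empty vector replicate 1 or 5 or PSD1 replicate 1, 2 or 4 (highest adjusted p = 0.138). With V5-PSD1 its values were 1105, 773.0, 736.0, 916.6 and 929.2 CPM.

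**Figure D2:**
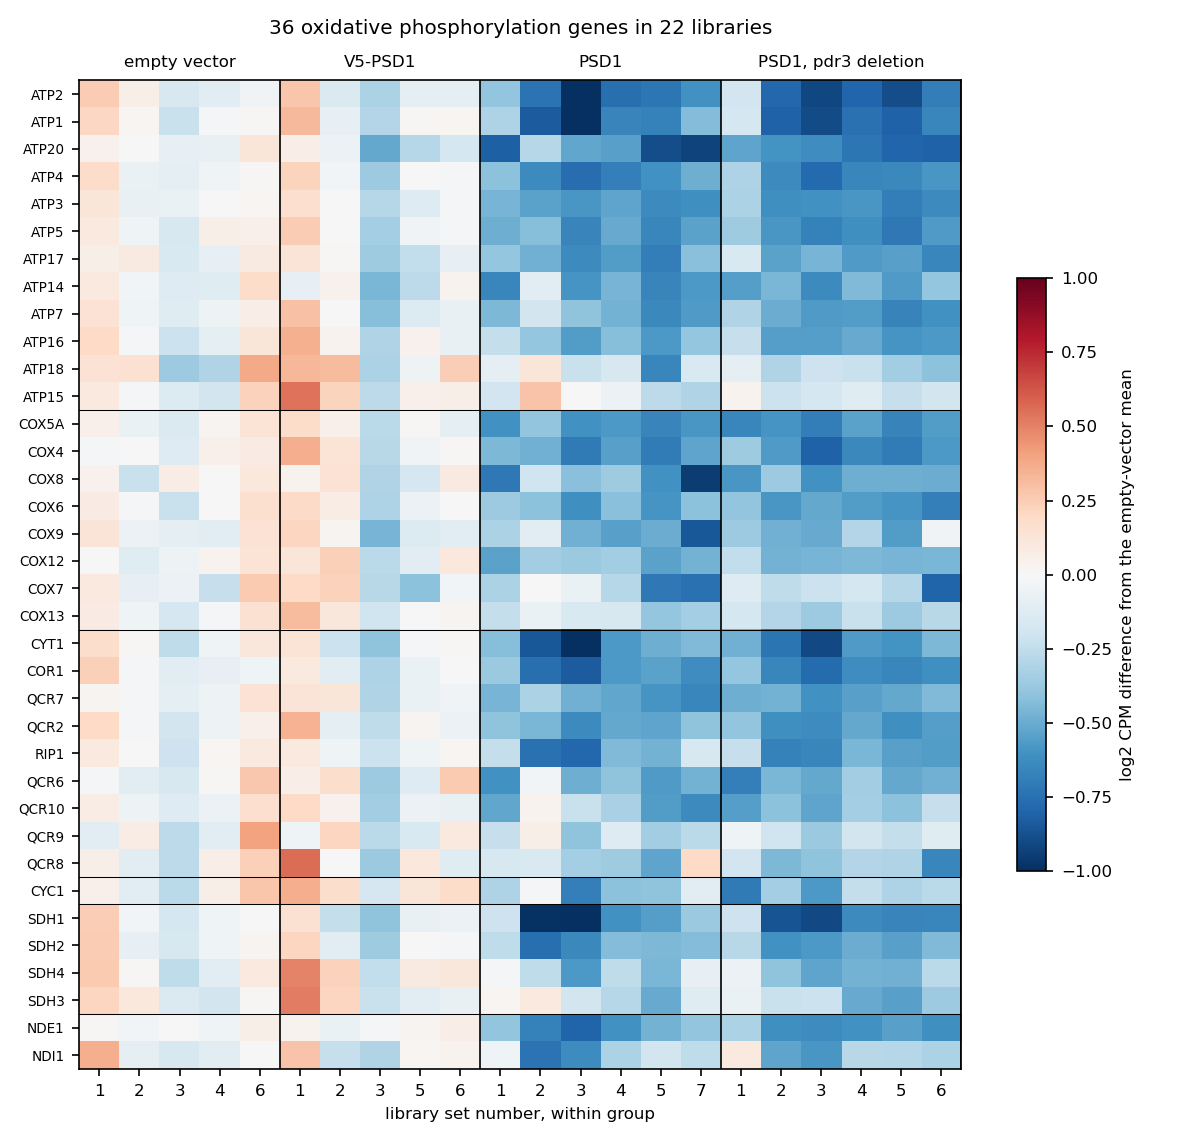
Difference of log2 CPM from the empty-vector mean for the 36 genes (rows, by complex) in the 22 libraries (columns, by group and by library set, a run of consecutive library numbers), with blue lower and red higher and colours that saturate at a difference of 1 in either direction. The PSD1 and deletion columns are blue in nearly all rows, and V5-PSD1 has a blue column in set 3 (its replicate 3) and a red one in set 1 (its replicate 1).

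Among themselves the members moved together from library to library and by library set, a run of consecutive library numbers. The library most often lowest belonged to set 3 in all 4 groups. It was lowest for 34 of 36 members in V5-PSD1 (replicate 3), for 28 with the empty vector (replicate 3), for 16 in the deletion (replicate 2) and for 15 with PSD1 (replicate 2). The library of set 1 was highest for 29 members in V5-PSD1 (replicate 1) and for 27 in the deletion (replicate 3). It was highest for 16 with PSD1 (replicate 3) and for 15 with the empty vector (replicate 1). In the last 2 groups libraries of other sets were highest for more members, PSD1 replicate 1 for 18 and empty vector replicate 5 for 21. The set 1 library had the most PSD1 mRNA in the PSD1 and deletion groups (24970 and 27210 CPM). PSD1 replicate 1 had the least of its group (8094 CPM). In V5-PSD1 the library of set 3 had the most (30490 CPM). The parts of library set and of PSD1 mRNA in this spread were not tested. After removal of group means and of the library series effect, the median Pearson correlation over 630 pairs of members was 0.601 across the 22 libraries. It was 0.687 for pairs within a complex and 0.594 for pairs across complexes, against 0.00088 for all pairs of tested genes. These pairs share their libraries, differences between library sets remain in the values, and the correlation is a description. COX8 (0.234) and NDE1 (0.341) had the lowest median correlation with the other members, and ATP16 (0.758) and QCR2 (0.749) the highest.

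Groups can also be compared inside a set, which holds at most 1 library of each. For each library the median of the members' log2 differences from the empty-vector mean was taken. The difference of these library medians between PSD1 and the empty vector was −0.48, −0.34, −0.43 and −0.41 in sets 1 to 4. For the deletion it was −0.40, −0.50, −0.43 and −0.46 in these sets and −0.67 in set 6. For V5-PSD1 it was 0.11, 0.06 and −0.15 in sets 1 to 3 and −0.12 in set 6. All 9 within-set differences of the first 2 groups were thus lower than all 4 of V5-PSD1. They do not hold for every gene, as CYC1 had a difference of 0.09 with PSD1 in set 2. An interaction between group and library series in the PSD1 difference passed for 0 of 36 members by edgeR and by DESeq2. Of all genes 3 and 17 passed. At an unadjusted p below 0.05 were 0 members by either tool, where 4.73% and 5.21% of all genes were.

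**Figure D3:**
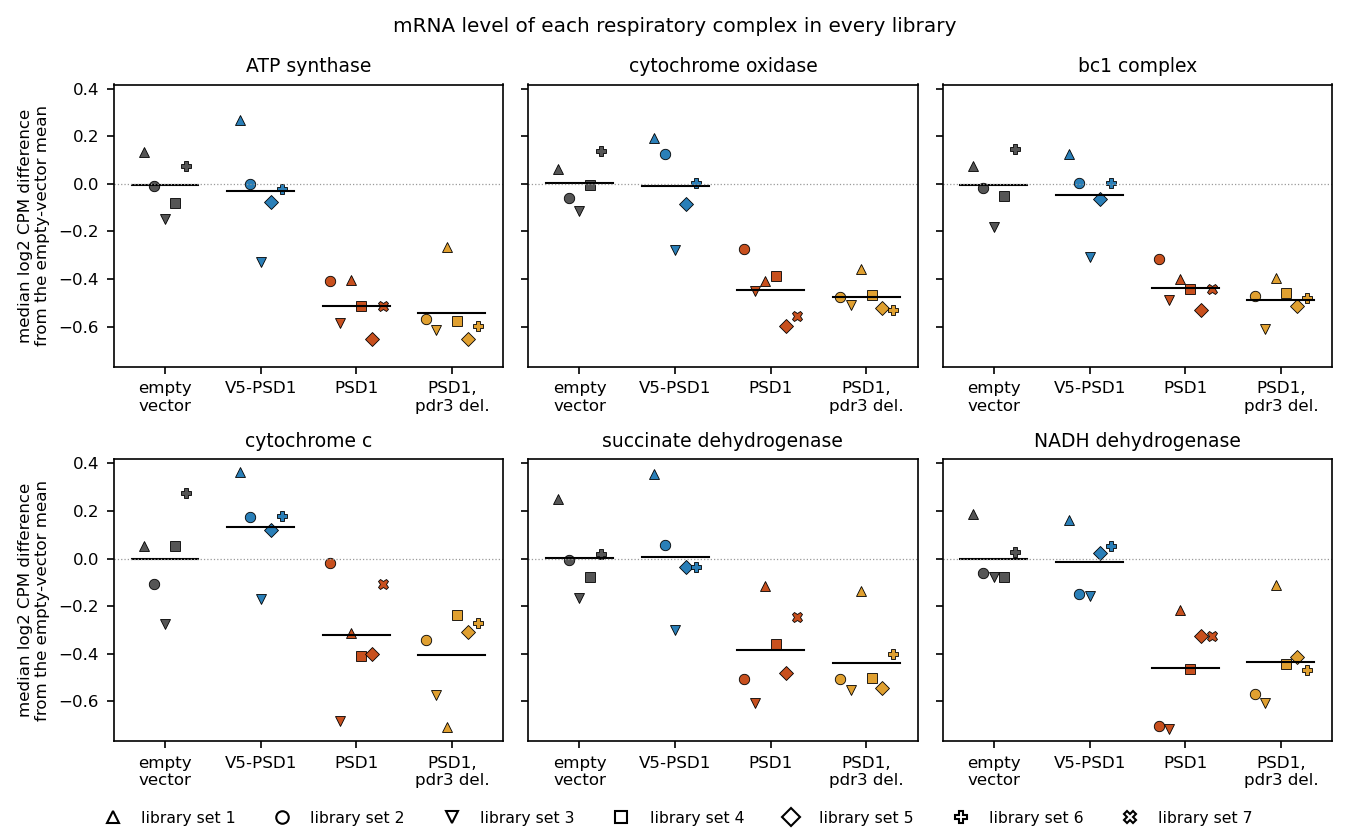
Median difference of log2 CPM from the empty-vector mean over the genes of each complex, for every library (points, with symbols for library sets; lines, group means). V5-PSD1 libraries lie on both sides of 0, with replicate 3 down to −0.33 for the ATP synthase. PSD1 and deletion libraries lie below 0 in all 6 panels. They enter the range of the controls for cytochrome c, a single gene, and for succinate dehydrogenase. In every panel but that of the bc1 complex, the highest PSD1 or deletion library lies above V5-PSD1 replicate 3.

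Deletion of PDR3 was compared with its PDR3+ counterpart under the same PSD1 plasmid. None of the 36 genes passed, where 0.414% of all genes did (0.0159% higher, 0.398% lower). For 0 of them did all deletion libraries lie below or above all PSD1 libraries, as they did for 0.366% and 0.0637% of all genes. The members' log2 differences ran from −0.17 to 0.09 with a median of −0.03. By edgeR 0 had an unadjusted p below 0.05, where 331 of the 6278 genes tested did. DESeq2 and limma on FPKM also called 0. The widest reach of a 95% interval was −0.44 for QCR8 and 0.32 for COX9, and for none of the 36 did the interval hold a difference as large as the median fall of 0.48. For ATP2 the difference was −0.002 ± 0.12, for CYT1 0.01 ± 0.11 and for NDE1 −0.003 ± 0.07. Against the empty vector, all deletion libraries lay below all controls in 24 of 36 genes (13.1% of all genes) and above them in 0 (16.5%). In that comparison the largest falls were those of ATP2, ATP20 and ATP1 (−0.67 ± 0.14, adjusted p = 0.000658).

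The V5-PSD1 group was next compared with the empty vector and with PSD1. Against the empty vector 0 of 36 passed by edgeR, DESeq2 and limma on FPKM. By edgeR 0 had an unadjusted p below 0.05, where 1087 of the 6278 genes tested did. The groups overlapped in all 36 genes, where 1.23% of all genes lay wholly below and 3.78% wholly above. The log2 differences ran from −0.18 to 0.14 with a median of −0.03. The 95% intervals reached down to −0.42 (SDH1) and up to 0.40 (SDH4). Against PSD1, 29 of 36 were higher with V5-PSD1 and none lower, where 40.5% of all genes passed (20.1% higher, 20.3% lower). The median difference was 0.45, and in 15 genes (41.7%) all V5-PSD1 libraries lay above all PSD1 libraries, as in 10.1% of all genes, and in 0 all below (9.84%). The largest were ATP1 (0.64 ± 0.14, adjusted p = 0.0012), ATP2 (0.62 ± 0.13, adjusted p = 0.000837) and COX4 (0.62 ± 0.09, adjusted p = 3.96e-05). ATP1, the alpha subunit of the F1 head, was at 2133, 1868, 1582, 1836 and 1858 CPM with the empty vector and at 991.3 to 1638 CPM in the deletion (median 1079). It was at 904.3 to 1494 CPM with PSD1 (median 1165) and at 2310, 1741, 1504, 1858 and 1876 CPM with V5-PSD1, so its groups nearly touched. The deletion was lower than V5-PSD1 in 31 of 36 genes, and higher in none, where 29.7% of all genes passed (15.5% higher, 14.2% lower), with a median of −0.49. In 14 genes all deletion libraries lay below all V5-PSD1 libraries (7.2% of all genes) and in 0 above (7.3%). ATP1 (−0.67 ± 0.14, adjusted p = 0.00131), COX4 (−0.65 ± 0.09, adjusted p = 4.21e-05) and ATP2 (−0.62 ± 0.13, adjusted p = 0.00122) led it. In library series 5 alone, with 3 libraries a group, 5 and 1 members passed in these 2 comparisons, with medians of 0.45 and −0.48. The 40.5% and 29.7% of all genes above come from the main fit and do not apply to that setting.

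Genes that help to build the same complexes were examined next. Assembly factors insert haem, copper or iron, translate the mitochondrially made subunits or fold the F1 head, and they are not part of the finished enzymes. With PSD1, 33 of 47 assembly factors rose and 6 fell, with a median of 0.55, beside 30 of 36 subunits that fell, where 29.7% of all genes rose and 26.9% fell. They are 18 higher and 2 lower of 24 for cytochrome c oxidase, 7 and 2 of 9 for the bc1 complex and cytochrome c, 4 and 0 of 5 for succinate dehydrogenase and 4 and 2 of 9 for the ATP synthase, the last being near the shares of all genes. In the deletion the total was again 33 higher and 6 lower (26.1% and 21.4% of all genes), and against the PDR3+ cells with PSD1 none passed. With V5-PSD1 PET117 and CYT2 rose and CBP2 fell, near the 2.53% higher and 0.494% lower of all genes. Under other settings 0 to 11 of the 47 rose. The shares of all genes above come from the main fit and do not apply to those settings. The median of the assembly factors with V5-PSD1 was 0.17, against 0.018 for all genes tested. An unadjusted p below 0.05 by edgeR, in either direction, was reached by 9 of 24, 7 of 9, 3 of 5 and 3 of 9. These counts follow the order of complexes above, and 1087 of all 6278 genes reached it.

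PET117, a cytochrome c oxidase assembly factor, went from 45.1, 33.0, 30, 32.3 and 41.9 CPM with the empty vector to 82.7 to 127.5 CPM with PSD1 (median 90.9), with no overlap. It rose by 1.40 ± 0.13 (adjusted p = 5.66e-08). In V5-PSD1 libraries it was at 64.0, 57.4, 49.5, 50.6 and 54.4 CPM, above all controls and below all PSD1 libraries (0.59 ± 0.13, adjusted p = 0.0146). COX23 and COX14 rose by 1.26 and 1.15 with PSD1, while COX19, a partner in the copper pathway, fell by 0.47 and PET309, a translational activator of COX1, by 0.34. For the bc1 complex CBP4 rose by 1.35 and the haem lyases CYC3 and CYT2 by 1.04 and 0.89, and CBP1 and CBP2, which act on the COB transcript, fell by 0.22 and 0.23. SDH5, which attaches flavin to Sdh1, rose from 86.2, 64.5, 57.2, 63.4 and 68.8 CPM to 138.4 CPM or more in every PSD1 library (1.27 ± 0.12, adjusted p = 9.2e-08), and SDH7 rose by 1.17. FMC1, needed for folding of the F1 head under heat, rose by 1.05 and ATP11 and ATP12, the chaperones of beta and alpha, by 0.74 and 0.50. ATP10, which acts on the F0 part, fell by 0.87 ± 0.23 (adjusted p = 0.00296), and AEP2 by 0.33.

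**Figure D4:**
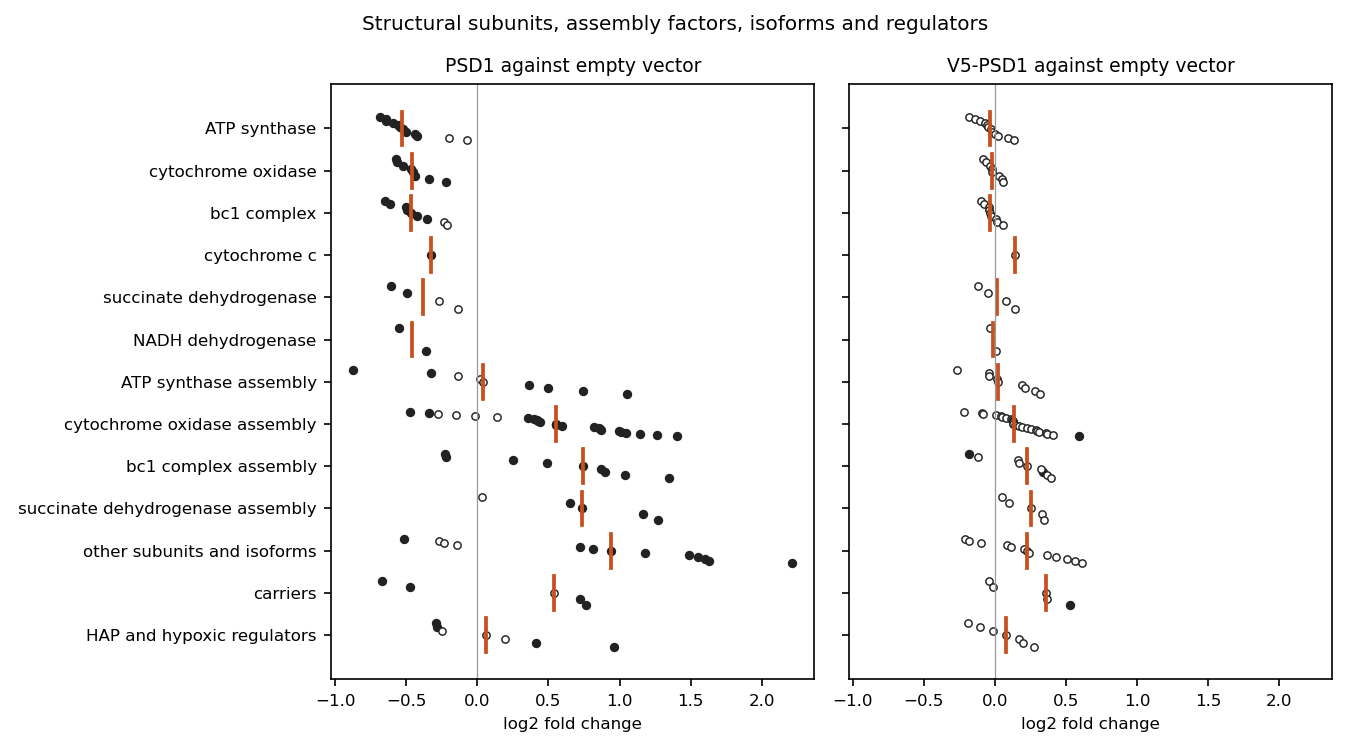
Log2 fold changes against the empty vector with PSD1 (left) and with V5-PSD1 (right) for the 6 groups of subunits and for lists of assembly factors, isoforms, carriers and regulators, 1 point a gene (filled, passed the threshold; bars, medians). With PSD1 all subunits lie left of 0, and the medians of 3 of the 4 assembly lists and of the isoforms lie between 0.55 and 0.94, while that of ATP synthase assembly is 0.04.

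Subunits and assembly factors also differed in sequence features that played no part in their choice. CCAAT stood in 44.7% of the upstream windows of the 47 assembly factors (21 genes), close to the 43.9% of all genes and not the 91.7% of the subunits. TGTANATA, the RNA element bound by the Puf3 protein, was searched on the sense strand in the 200 bases after the stop codon. It stood in 40 of 47 assembly factors (85.1%), in 4 of 36 subunits (11.1%: ATP1, ATP18, COX8 and SDH1) and in 14.1% of 6002 nuclear genes. Assembly factors with the element include CBP1, CBP2, PET309 and AEP2, which fell with PSD1. Those without it include SDH6, SDH8 and PET54, which rose, and COX19 and ATP10, which fell. Among genes outside the lists, the median log2 fold change with PSD1 was 0.17 for the 785 with TGTANATA and −0.02 for the 4876 without it. It was 0.0043 for the 2474 with CCAAT and 0.013 for the 3187 without. Genes with and without a motif were not matched for length. Whether either motif has a part in the changes was not tested. The 30-base sites of PET117 (chr5:272128-272157, + strand), CBP4 (chr7:845779-845808, − strand), SDH5 (chr15:197032-197061, + strand) and FMC1 (chr9:179724-179753, − strand), which rose, and of ATP1 (chr2:38729-38758, + strand), which fell, are shown from 5′ to 3′ as DNA of the R64 reference, with the element in capitals.
PET117: ctactcttgttTGTATATAtgtaagaatcg
CBP4: tatttgtacacTGTAAATAggtttaaaaat
SDH5: tgtatatgactTGTAAATAaaccggaagag
FMC1: tatcagagtttTGTAAATAagtatatatat
ATP1: tcaaaaagaaaTGTAAATAtagaaatttta

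The size of the change also moved with the length of the gene. Over the 36 members the Spearman correlation between coding length and log2 fold change with PSD1 was −0.563, and over 5786 tested genes with a coding length it was −0.36, both descriptions across genes. The median change of members was −0.34 for the 9 with a protein under 100 residues, −0.48 for the 18 with 100 to under 300 and −0.61 for the 9 with 300 or more. Genes outside the lists had medians of 0.29, 0.19 and −0.07 in these classes, so members were lower than them in each. Assembly factors had medians of 0.76, 0.88 and 0.14 in the same classes (4, 22 and 21 genes). What part length has in these differences was not tested.

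Minor isoforms of several members rose with PSD1. CYC7, iso-2-cytochrome c, which is known from cells short of oxygen, was at 20.5, 29.1, 19.7, 24.1 and 25.5 CPM with the empty vector and at 46.3 to 98.8 CPM (median 73.2) with PSD1, with no overlap. It rose by 1.60 ± 0.18 (adjusted p = 5.7e-07). V5-PSD1 libraries had 29.3, 46.7, 34.7, 34.1 and 36.6 CPM (0.61 ± 0.18, adjusted p = 0.0794). COX5B, the subunit V isoform of low oxygen, whose window is printed above, had 14.9, 19.2, 17.4, 17.5 and 19.0 CPM with the empty vector and 15.5 to 42.3 CPM (median 27.4) with PSD1. It rose by 0.72 ± 0.20 (adjusted p = 0.00401), and its lowest PSD1 library, replicate 3, lay inside the control range. NDE2, the second external NADH dehydrogenase, rose by 1.55 ± 0.27, and SDH9, a paralogue of SDH1, by 2.22 ± 0.25. The SDH3 and SDH4 paralogues SHH3 and SHH4 rose by 1.18 and 1.49. STF2, which acts with the ATP synthase inhibitor, rose by 1.63, and INH1, the inhibitor itself, fell by 0.52. In all, 9 of 13 other subunits and isoforms rose and 1 fell with PSD1, where 29.7% of all genes rose and 26.9% fell. In the deletion 9 rose and 2 fell (26.1% and 21.4% of all genes), and with V5-PSD1 0 passed by edgeR (3.03% of all genes). With V5-PSD1 4 of the 13 had an unadjusted p below 0.05 by edgeR, where 1087 of the 6278 genes tested did.

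As a share of the major gene's FPKM in the same library, CYC7 made up 2.36% ± 0.446 of CYC1 with the empty vector (SD, n = 5), 8.97% ± 1.89 with PSD1 (n = 6), 8.62% ± 1.10 in the deletion (n = 6) and 3.30% ± 0.722 with V5-PSD1 (n = 5). COX5B went from 3.11% ± 0.39 of COX5A to 7.5% ± 2.24, 6.69% ± 1.47 and 3.43% ± 0.407 in the same order. For NDE2 against NDE1 the shares were 1.83% ± 0.854, 7.31% ± 0.887, 6.24% ± 1.70 and 2.51% ± 0.949. For SDH9 against SDH1 they were 1.11% ± 0.215, 7.81% ± 1.44, 6.11% ± 1.26 and 1.54% ± 0.41. In these 4 pairs, every PSD1 and every deletion library lay above every control and V5-PSD1 library. The pairs were chosen after their values were seen, so these shares are a description. Each pair consists of related sequences, so reads that the counting divided between them make the shares uncertain.

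**Figure D5:**
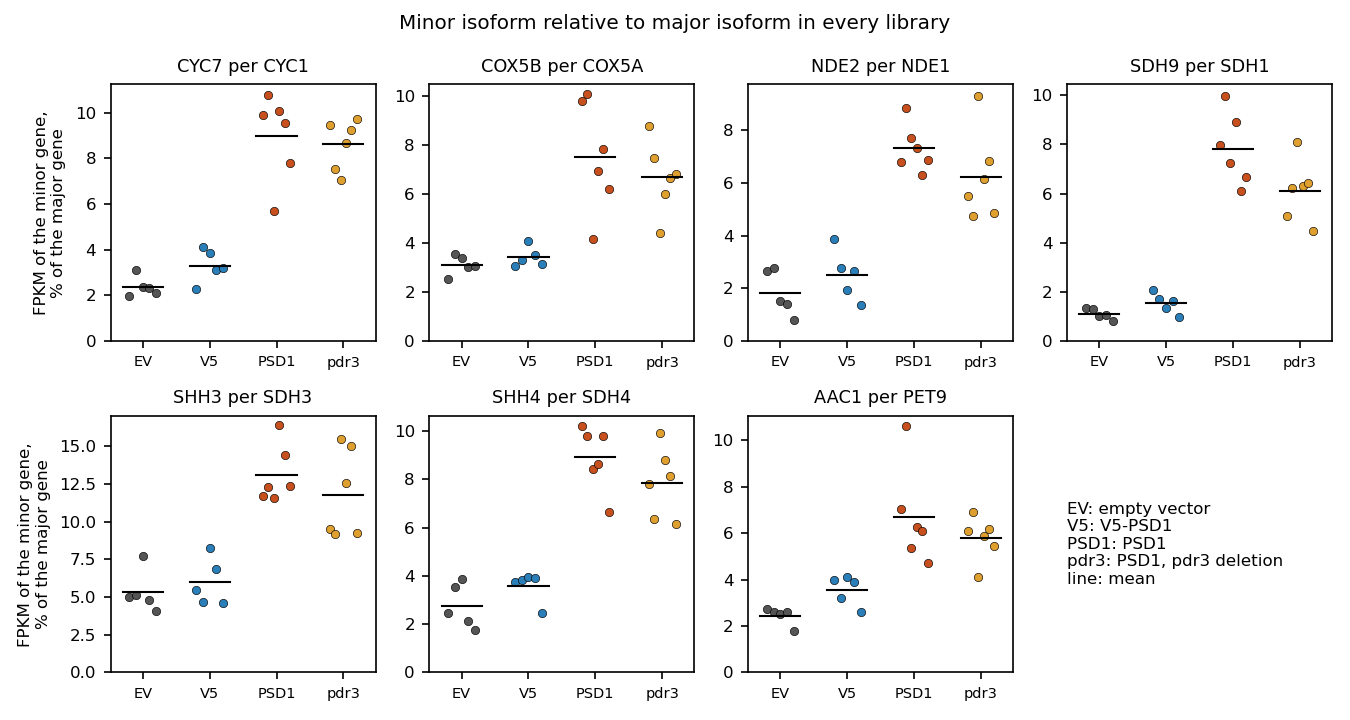
FPKM of a minor gene as a percentage of the FPKM of its major paralogue in every library (points; lines, group means; each panel starts at 0) for 7 pairs. The PSD1 and deletion libraries lie above the empty-vector libraries in each panel, as with CYC7 at 5.69% of CYC1 or more against 3.10% or less.

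Among carriers that serve oxidative phosphorylation, the major ADP/ATP carrier gene PET9 fell by 0.67 ± 0.17 with PSD1 (adjusted p = 0.00281) and the phosphate carrier gene MIR1 by 0.48 ± 0.12, while the minor forms AAC1 and PIC2 rose by 0.72 and 0.76, and AAC3 had 0.54 ± 0.23 (adjusted p = 0.0533). Of the 5 carriers 2 rose and 2 fell with PSD1, where 29.7% of all genes rose and 26.9% fell. In the deletion 2 rose and 2 fell (26.1% and 21.4% of all genes). With V5-PSD1 AAC1 alone passed (0.53 ± 0.13, adjusted p = 0.028), where 2.53% of all genes rose and 0.494% fell.

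Of 7 regulators, 2 rose and 2 fell with PSD1, shares near those of all genes (29.7% higher, 26.9% lower). HAP4, the activating subunit that is induced on non-fermentable carbon, was at 594.5, 493.9, 496.7, 490.5 and 531.6 CPM with the empty vector, 303.5 to 558.7 CPM (median 461.0) with PSD1 and 412.5 to 646.2 CPM (median 471.2) in the deletion. All groups overlapped the controls, and HAP4 did not pass with PSD1 (−0.25 ± 0.13, adjusted p = 0.0998) or in the deletion (−0.09 ± 0.13, adjusted p = 0.603). With V5-PSD1 it was at 548.7, 500.2, 539.4, 546.5 and 619.4 CPM, higher than with PSD1 (0.33 ± 0.13, adjusted p = 0.0449). The DNA-binding subunit genes HAP5 and HAP2 rose with PSD1. HAP5 went from 36.6, 28.9, 31.0, 31.7 and 33.1 CPM to 58.1 to 73.8 CPM, median 61.6 (0.96 ± 0.07, adjusted p = 6.52e-09), and HAP2 changed by 0.41 ± 0.08 (adjusted p = 0.000145). HAP3 did not pass (0.20 ± 0.13, adjusted p = 0.193). HAP1 fell by 0.28 ± 0.12 (adjusted p = 0.0491), the hypoxic repressor gene MOT3 fell by 0.29 ± 0.06, and the other one, ROX1, had 0.06 ± 0.11. No regulator passed between V5-PSD1 and the empty vector. By edgeR 2 of 7 had an unadjusted p below 0.05 there, as did 1087 of the 6278 genes tested.

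The 7 subunits encoded by mitochondrial DNA that were looked up (COX1, COX2, COX3, COB, ATP6, ATP8 and OLI1) had 0 to 84 counts in total over the 22 libraries and were not tested. RNA was selected by polyA here, and yeast mitochondrial mRNAs are known to lack polyA tails. The 36 members lie on 13 chromosomes. QCR9 and QCR10 have an intron in the coding sequence, no member overlaps another locus of the reference annotation, and their proteins have 59 to 640 residues.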

How the data were processed

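PolyA RNA of 22 W303 libraries was analysed, grouped by the genotype in the labels. The deposited counts per gene are whole numbers, and were taken as rounded expected counts because RSEM is among the tools named. The deposited log2 table was read as log2(FPKM + 1) from its name and its values. FPKM printed here is that table with the log and the 1 removed. STAR 2.5.3a, RSEM 1.3.0, SAMtools 1.3 and the build sacCer3 appear in the submitters' processing notes, without roles. For annotation and strand the counting settings were not given in the sources used here, so antisense reads cannot be told apart. Columns were joined to samples by library number, since 2 of them carry another replicate number than the title.

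All 22 libraries entered 1 quasi-likelihood fit of edgeR 4.0.16 (R 4.3.3), whose terms were group and library series, after TMM scaling and filterByExpr by group (6278 of 7126 rows kept). CPM uses TMM library sizes. Intervals are log2 fold change ± 1.96 SE. They are somewhat narrower than the edgeR test implies, as that of HAP4 with PSD1 excludes 0 at an unadjusted p of 0.0636. DESeq2 1.42.0 and limma 3.58.1 on log2 FPKM (pseudocounts 1 and 0.1) were alternatives. The models were run on simulated counts in which few genes changed, equally up and down, with no effect of library series. A change as broad as that with PSD1 was not simulated. The sequences come from the R64 reference with its RefSeq annotation, and motif counts, lengths and isoform shares used Python 3.11.15 and pandas 2.3.3. Counts per library limit precision, and no interval covers more than the spread between libraries.

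The members and lists were chosen with earlier results of these data known. Every-library values are given for the 2 members of each larger complex with the most negative and the 1 with the most positive change in PSD1 against the empty vector, for CYC1, NDE1 and NDI1, and for up to 3 genes with the largest change in the other comparisons. Of each further list, counts and up to 3 called genes are named, with HAP1 to HAP5, COX5B and CYC7. Other genes of the lists are named after their values were seen.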

Additional observations from a re-analysis of the deposited data

Results flagged for a closer look

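In 11 of 144 combinations of a member and a group, the highest or lowest library stood apart from the others of its group by a gap that Dixon's test marks at the 95% level, where chance marks about 1 in 20. Of these, 6 were the same library. Deletion replicate 3 was apart at the top with 1638 CPM for ATP1, 3079 CPM for ATP2, 700.6 CPM for ATP3, 321.5 CPM for ATP16, 155.9 CPM for COX12 and 1686 CPM for NDE1. That library belongs to set 1 and had the highest PSD1 mRNA of its group (27210 CPM). PSD1 replicate 1 was apart at the top for ATP14 (343.3 CPM), COX5A (438.4 CPM) and QCR6 (946.3 CPM), and had the lowest PSD1 mRNA of its group (8094 CPM). Deletion replicate 6 was apart at the bottom for COX7 (24.83 CPM), and empty vector replicate 1 at the top for COR1 (2275 CPM). Leaving out deletion replicate 3, or any other library, kept the number of members lower in the deletion than with the empty vector between 27 and 32.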

How the results depend on the processing

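With PSD1 against the empty vector 20 to 32 members were lower over 14 alternatives and 26 to 32 with 1 library left out, and none was higher in any of them. The counts were 14 to 32 and 27 to 32 for the deletion against the empty vector, 5 to 31 and 27 to 32 (higher) for V5-PSD1 against PSD1, and 1 to 33 and 29 to 33 for the deletion against V5-PSD1. V5-PSD1 against the empty vector and the deletion against PSD1 had 0 calls in each. The counts that moved by over 1.5 times were those of library series 5 alone, with 14, 5 and 1 members in the order above, and that setting has 3 libraries a group. The medians of the members stayed between −0.55 and −0.44, between −0.56 and −0.49, between 0.41 and 0.46 and between −0.51 and −0.43 over these alternatives. For V5-PSD1 against the empty vector the median ran from −0.10 (limma on FPKM) to −0.02 (library set block), against −0.03 as reported. ATP15, which has no call, changed sign with the library set block (0.0013), in series 5 alone (0.020) and without empty vector replicate 5, with a range of −0.15 to 0.018 over single libraries left out. With the replicate block the counts were 30, 31, 29 and 30. Same-numbered libraries deviated together with correlations of −0.128 to 0.609 (median 0.21), over 0.1 in 21 of 31 pairs. The median was also 0.21 for pairs of the same library set (19 of 27 over 0.1). It was −0.0615 for pairs of different library series (19 of 90 over 0.1). The main fit did not pair samples by number or by set, and both blocks were run as alternatives. For 14 of 22 libraries the best partner in another group had the same number. COX13 lost its call with the library set block and QCR8 gained one there. COX13, CYC1 and NDI1 lost theirs in series 5 alone. Of the 47 assembly factors 29 to 34 were higher and 5 to 7 lower with PSD1.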
